A study of Mus musculus with 4 samples.

Results

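The genes described here are those within 1 Mb on either side of Mir9-1, one of the 3 mouse genes for the microRNA miR-9. Of 82 genes listed in that stretch of chromosome 3 (GRCm38, from 87215598 to 89215686), 78 had a normalised value of at least 1 in at least 2 of the 4 libraries and are the members, out of 22455 genes tested in all. The members were chosen by position and detection, without regard to genotype. Of the 78, 57 are protein-coding. The filter left out 4 genes, whose highest value in any library was 5.97, while Gm10253 just entered with 2.98 and 0 in the knockouts and 1.03 and 0 in the controls.

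The RNA came from whole mammary glands of females that carry MMTV-PyMT, a transgene whose mammary tumour virus promoter drives the polyomavirus middle T oncogene in mammary epithelium. The 2 knockout libraries are from animals in which exon 1 of miR-9 was removed, and the 2 control libraries are from littermates that kept it. All 4 shared the transgene, a mixed C57BL/6 background and the hyperplastic stage, and no age was given. The labels state that the knockout line was obtained as heterozygotes, but not which miR-9 gene it alters or the zygosity of the animals sequenced. Nor do they tie a library to an animal: the p-values describe the scatter among these 4 libraries, part or all of which could be technical.

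A microRNA guides a silencing complex to messages that pair with its seed, bases 2 to 8, and lowers their translation and stability. miR-9 is best known from the developing brain, where it acts on neural progenitors, and it has been studied in breast cancer cells as well. The 3 genes make the same mature miR-9-5p, so the hairpins are printed together because any of them could be the source of the deleted RNA. Capitals mark mature miR-9-5p in the hairpins and the seed in the last line; all sequences are those of RefSeq on GRCm38.p6, written 5′ to 3′.
Mir9-1: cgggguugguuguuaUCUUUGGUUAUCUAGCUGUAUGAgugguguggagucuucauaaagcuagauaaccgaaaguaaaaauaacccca
Mir9-2: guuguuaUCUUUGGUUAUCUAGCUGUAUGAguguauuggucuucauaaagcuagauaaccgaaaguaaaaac
Mir9-3: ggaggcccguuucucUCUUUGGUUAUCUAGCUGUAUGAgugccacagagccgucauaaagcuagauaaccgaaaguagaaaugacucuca
mmu-miR-9-5p: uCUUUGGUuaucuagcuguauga

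The hairpin of Mir9-1 spans chr3:88215598-88215686 on the plus strand. Mir9-2 lies at chr13:83738814-83738885 and Mir9-3 at chr7:79505264-79505353. The level of miR-9 was not analysed here. In the GENCODE M21 annotation, the long non-coding RNA gene Gm3764 spans Mir9-1 on the same strand. The hairpin lies in an intron of each Gm3764 transcript that spans it. An exon of Gm25641 on the opposite strand overlaps it as well. The comparison asks whether messages from the neighbourhood of Mir9-1 differ between glands with and without the knockout, and whether a difference goes with distance from the hairpin.

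Normalised values summed to 15904798 and 16073229 in knockout libraries 1 and 2, and to 16378833 and 16418668 in control libraries 1 and 2. The members together took 0.343% and 0.332% of the knockout totals and 0.370% and 0.387% of the control totals. Control 2 stood apart from the knockouts, with a correlation across genes of 0.953 and 0.960 to them, where control 1 had 0.971 and 0.972. Epithelial RNA was abundant in these whole glands, with the luminal keratin Krt8 between 18175 and 22596 in all libraries. Stromal RNA was present too, with the fibroblast marker Col3a1 between 6416 and 15921. These are bulk samples, so fewer cells of a type and less RNA per cell cannot be told apart.

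The brevican gene Bcan was far higher in the knockouts, and it was the single member that passed the test. Bcan rose (limma, Benjamini-Hochberg adjusted p under 0.05, on log2 of the value plus 1), a count of 1 of 78 members higher where 0.414% of all tested genes passed higher. No member passed lower, where 0.169% of all tested genes did. At an unadjusted p under 0.05 there were 10 members higher and 15 lower, together 32.1% of the 78. Over all tested genes 10.3% were higher and 7.66% lower, together 18.0%. Both knockout libraries lay above both controls in 18 members and below both in 31, where 25.5% and 25.6% of all tested genes did so, and the groups overlapped in 29 members. The count of 1 rested on single libraries. It was 0 without knockout 1 and 0 without knockout 2, and 11 without control 1, when 11.2% of all tested genes passed, and 1 without control 2, when 0.796% did.

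**Figure D1:**
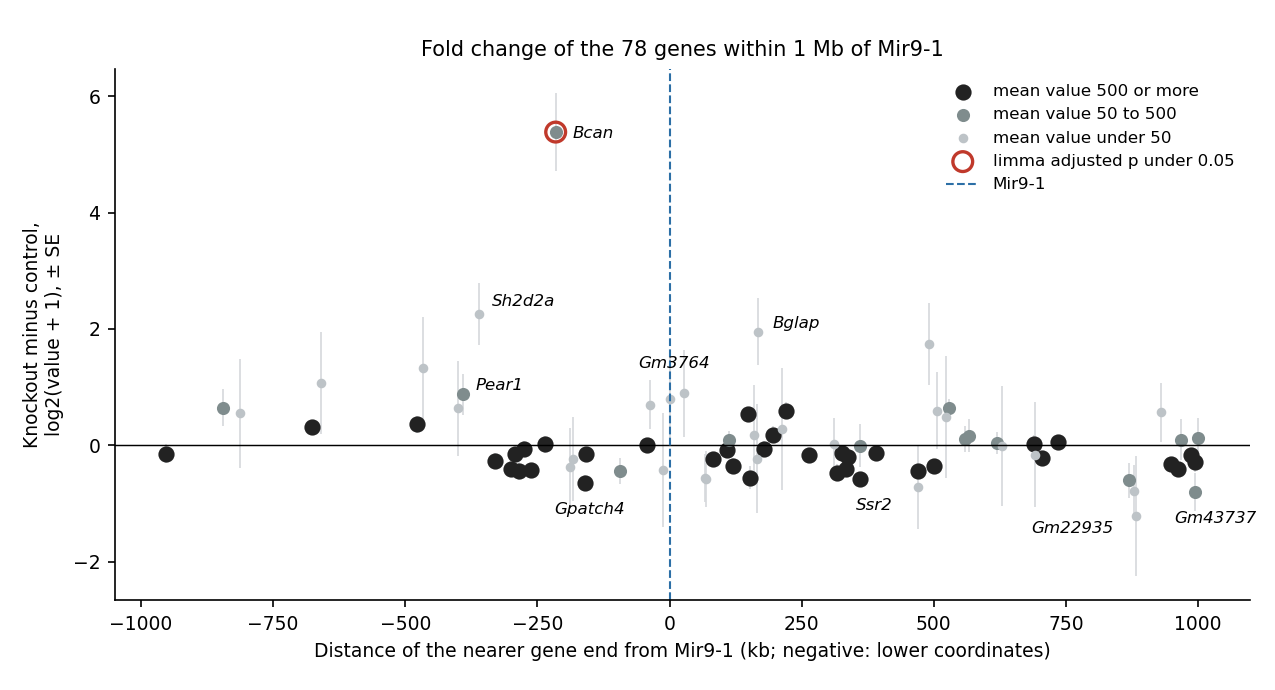
Knockout minus control difference in log2(value + 1) with its SE for each of the 78 members, against the distance in kb of the nearer end of the gene from Mir9-1 (dashed line). Point size and shade give the mean value over the 4 libraries. Bcan, circled, stands at 5.39, while the next largest difference among members with a mean value of at least 50 is 0.88.

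Bcan encodes brevican, a chondroitin sulphate proteoglycan of the lectican family, known from the matrix around neurons and glia. The gene (ENSMUSG00000004892, chr3:87987531-88000230, minus strand) ends 215.4 kb from Mir9-1 on the side of lower coordinates, and no other listed gene overlaps it. Its normalised value was 624 and 580 in knockouts 1 and 2, against 28.8 and 5.98 in controls 1 and 2. The knockouts sat close together, and the controls differed 4.81-fold from each other, yet the lower knockout was far above the higher control. The mean was 602 ± 31.1 in the knockouts and 17.4 ± 16.1 in the controls (SD, n = 2 each), 34.6-fold higher. On the log2 scale the difference was 5.39 (SE 0.67, limma adjusted p = 0.0473). It ranked 1 of 13057 tested genes with a mean value of at least 50, and 2 among all 22455, where 0.0223% had a log2 difference of 5 or more. Per kb of gene model, Bcan stood 31 from the top among the 78 members in the knockouts, at 148 per kb, and 63 from the top in the controls, at 4.28 per kb. Its difference was 6.43 without control 1 and 4.34 without control 2, and 5.33 and 5.44 without knockout 1 and knockout 2. Over the settings with all 4 libraries its limma adjusted p ran from 0.0138 to 0.0683. That p missed the threshold at 0.0683 with a pseudocount of 0.1 and at 0.0582 with the filter of at least 10 in 2 libraries.

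The genes on either side of Bcan did not share its difference in size. Nes, which encodes nestin, the intermediate filament of neural progenitors, lies 7.08 kb from Bcan and had 964 and 988 in the knockouts and 1103 and 838 in the controls, with overlapping groups and a log2 difference of 0.021 (SE 0.15, limma adjusted p = 0.958). Hapln2 encodes a link protein that joins lecticans to hyaluronan. It lies 21.5 kb away on the other side and was near the floor, at 3.98 and 3.88 in the knockouts and 7.19 and 3.99 in the controls (log2 difference -0.37, limma adjusted p = 0.811). Crabp2, which carries retinoic acid into the nucleus, lies 34.2 kb from Bcan and had 1403 and 1323 in the knockouts against 1844 and 1816 in the controls. Both knockouts were below both controls for Crabp2, and its log2 difference of -0.43 (SE 0.10) did not pass (limma adjusted p = 0.0991).

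**Figure D2:**
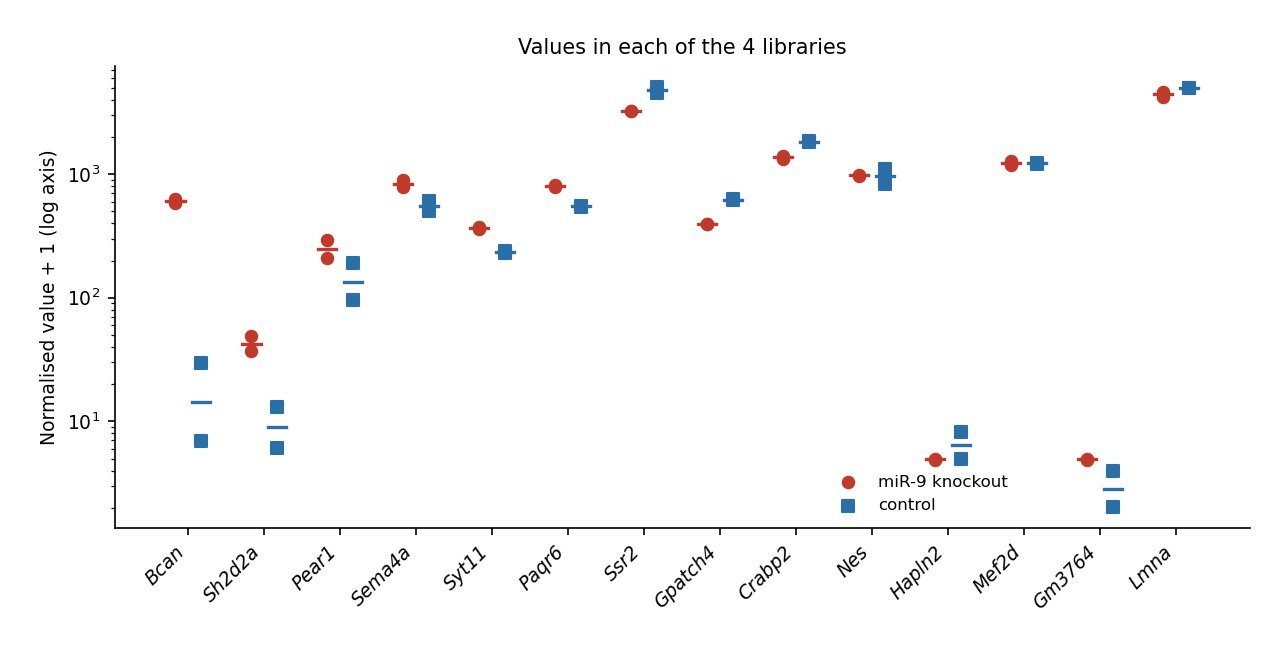
Normalised value plus 1 on a log axis in each library, knockouts as red circles left of controls as blue squares, with the mean of the log2 values as a line. For Bcan the knockouts lie at 624 and 580 and the controls at 28.8 and 5.98, while for Nes and Mef2d the groups overlap.

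Among genes elsewhere in the genome whose proteins belong with brevican, no other passed higher. Of 11 such genes, 0 passed higher and 1 lower, beside 0.414% and 0.169% of all tested genes, and the median log2 difference was 0.16. The other lectican genes, set beside Bcan, were Vcan with 1594 and 1970 in the knockouts and 991 and 675 in the controls, Acan with 2.98 and 23.3 in the knockouts and 6.16 and 1.99 in the controls, and Ncan with 5.97 and 2.91 in the knockouts and 8.22 and 0 in the controls. Vcan, the versican of connective tissue, had both knockouts above both controls and a log2 difference of 1.11 (limma adjusted p = 0.0661), and Acan and Ncan had overlapping groups. The gene that passed lower was Tnc, the matrix protein tenascin C, with 265 and 244 in the knockouts against 705 and 828 in the controls (log2 difference -1.58, limma adjusted p = 0.011). Tenascin R, a ligand of brevican in brain, was low, with Tnr at 13.9 and 4.86 in the knockouts and 1.03 and 0 in the controls (log2 difference 2.71, limma adjusted p = 0.156). The proteases that cut lecticans, Adamts4 and Adamts5, had log2 differences of 0.16 and 0.54 with neither past the threshold.

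Bcan is also expressed by glia, and markers of Schwann cells and other glia were read in the same libraries. Of 13 such markers 12 were tested, 0 passed in either direction, 8 had both knockouts above both controls, as 25.5% of all tested genes did, and 1 both below, and the median log2 difference was 0.81. Their summed value was 11550 and 13661 in the knockouts and 12105 and 11552 in the controls, most of it from Sox10, which had 7728 and 8528 in the knockouts and 8976 and 8722 in the controls. Without Sox10 the sum was 3822 and 5133 in the knockouts and 3128 and 2830 in the controls, with both knockouts above both controls. Which cells gave the Sox10 values cannot be told from bulk RNA. Foxd3 was at 0 in both controls and in knockout 1. Gfap, the glial filament gene, had 484 and 1422 in the knockouts against 69.9 and 27.9 in the controls, a log2 difference of 4.20 (limma adjusted p = 0.105). Of 5 neuron markers 3 were tested, with sums of 35.8 and 67.0 in the knockouts and 21.6 and 26.9 in the controls. Most of each sum came from Tubb3, with 28.85 and 63.13 in the knockouts and 18.49 and 14.95 in the controls. Snap25 went the other way, at 0 and 0.97 in the knockouts and 2.055 and 5.98 in the controls. Rbfox3 had overlapping groups. Snap25 and Syt1 were at 0 in at least 1 library. Hormone-sensing luminal cells, which carry the progesterone receptor, had marker sums of 9820 and 10583 in the knockouts and 4041 and 2421 in the controls. Of their 8 markers 3 passed higher, beside 0.414% of all tested genes. The part of these cell types in the rise of Bcan was not tested.

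**Figure D3:**
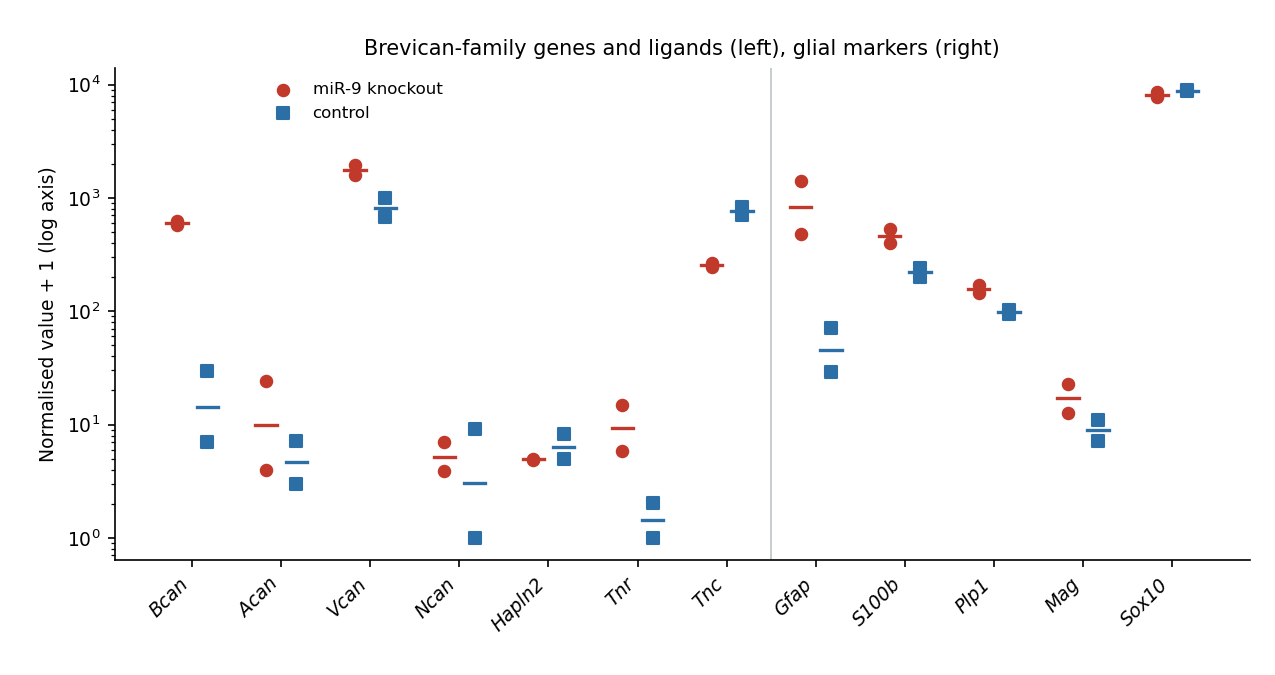
Normalised value plus 1 on a log axis in each library for Bcan with lecticans, a link protein and tenascins on the left, and for glial markers on the right; knockouts are red circles left of controls as blue squares, and lines are means of the log2 values. For Gfap, too, both knockouts lie above both controls, and its knockouts are wider apart than those of Bcan. Gfap has 484 and 1422 in the knockouts and 69.9 and 27.9 in the controls. Sox10 lies between 7728 and 8976 in all libraries, and which cells gave its RNA was not tested.

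The genes nearest to Mir9-1 showed no difference that passed the test. Gm3764, which carries the hairpin, was near the floor, at 3.98 and 3.88 in the knockouts and 1.03 and 2.99 in the controls (log2 difference 0.79, limma adjusted p = 0.611). Values this low do not show whether the locus was altered. On the side of lower coordinates, the non-coding AW047730, 12.1 kb away, had 3.98 and 1.94 in the knockouts and 1.03 and 12.0 in the controls. The antisense transcript 1700113A16Rik, 37.8 kb away, had 31.8 and 33.0 in the knockouts against 17.5 and 21.9 in the controls, with a log2 difference of 0.70 (limma adjusted p = 0.41). It overlaps the end of Mef2d on the other strand, and the strand setting of the counting was not given, so reads of the pair cannot be told apart. Mef2d, a transcription factor of muscle and neurons 43.5 kb away, had overlapping groups, at 1265 and 1187 in the knockouts and 1217 and 1234 in the controls (log2 difference 0.00, SE 0.11). Iqgap3, a scaffold for Ras signalling in dividing epithelium, had 228 and 321 in the knockouts and 326 and 416 in the controls (log2 difference -0.44, limma adjusted p = 0.336). Naxe, which repairs damaged NADH, had 1381 and 1391 in the knockouts against 1500 and 1572 in the controls (log2 difference -0.15, limma adjusted p = 0.471).

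On the side of higher coordinates the nearest member was Rhbg, an ammonium transporter gene 27.2 kb away, with 16.9 and 11.7 in the knockouts and 15.4 and 2.99 in the controls. Its groups overlapped. Tsacc, a co-chaperone gene of testis, had 37.8 and 35.0 in the knockouts against 39.0 and 74.7 in the controls, and the pseudogene Gm37116 overlapping it had 10.9 and 13.6 in the knockouts against 19.5 and 17.9 in the controls. Cct3, a subunit of the cytosolic chaperonin that folds actin and tubulin, had 3538 and 3861 in the knockouts against 4219 and 4497 in the controls, below in both (log2 difference -0.24, limma adjusted p = 0.276). Glmp, a lysosomal membrane protein gene, had 2706 and 2251 in the knockouts and 2572 and 2668 in the controls, with overlapping groups. The log2 differences of these 5 genes lay between -0.58 and 0.90, and none passed the threshold.

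The differences were read in 3 bins of distance from Mir9-1, with no test between them. The median log2 difference was -0.056 over 27 members within 250 kb, -0.15 over 23 members from 250 to 500 kb, and 0.034 over 28 members from 500 to 1000 kb. These medians ran from -0.14 to 0.04, from -0.24 to -0.14 and from -0.14 to 0.05 when 1 library was left out. At an unadjusted p under 0.05 there were 8 of the 27 (29.6%), 11 of the 23 (47.8%) and 6 of the 28 (21.4%), beside 18.0% of all tested genes. Over all 78 members it was -0.073, beside 0.0043 over all genes tested. The median size of the difference, without its sign, was 0.37, 0.41 and 0.32 in the bins from near to far, and 0.32 over all genes tested. Across the 78 members the Spearman rank correlation of distance with the log2 difference was 0.01 and with its size -0.03, as a description over neighbouring genes that share the same libraries. Members on the side of lower coordinates had a median of -0.03 (26 genes) and those on the other side one of -0.13 (51 genes). A difference of at least 1 in size was seen in 7 members, or 8.97%, beside 16.1% of all tested genes, and 2 of the 7 lay within 250 kb.

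**Figure D4:**
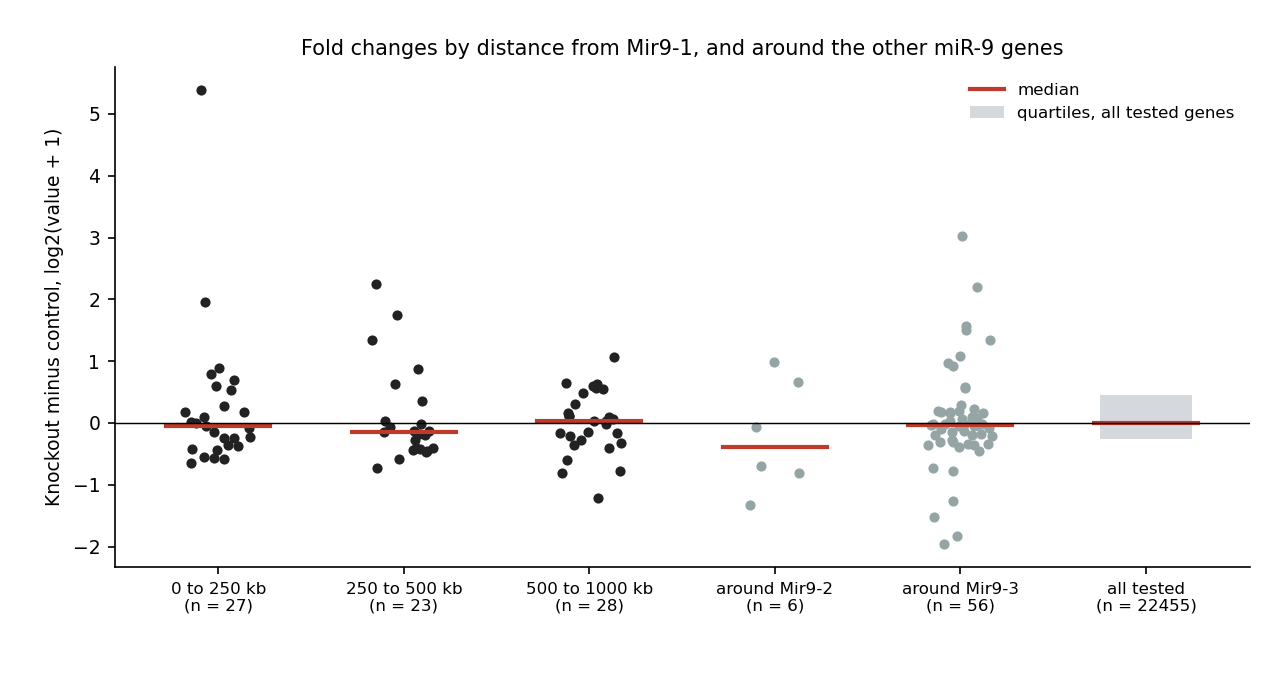
Knockout minus control difference in log2(value + 1) per gene in bins of distance from Mir9-1, around Mir9-2 and around Mir9-3, with medians in red; the bar gives the quartiles of all 22455 tested genes. Medians are -0.056, -0.15 and 0.034 in the bins from near to far, and Bcan alone stands above 5.

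The 1 Mb stretches around the other miR-9 genes served as the sets most like this one. Around Mir9-2, where genes are sparse, 6 genes were tested and 0 passed in limma (1, or 16.7%, at an unadjusted p under 0.05), with a median of -0.39 that was -0.78 without control 1 and 0.01 without control 2. Around Mir9-3, 56 genes were tested and 0 passed (8, or 14.3%, at an unadjusted p under 0.05), with a median of -0.027 and a highest log2 difference of 3.03, that of the adipocyte gene Plin1. Adipocyte marker sums, which include Plin1, were 10456 and 3247 in the knockouts and 3881 and 1589 in the controls. These shares stand beside 32.1% around Mir9-1 and 18.0% of all tested genes, and the difference between the 3 stretches was not tested. Without 1 library the median around Mir9-3 ran from -0.07 to 0.01.

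Most of the abundant members had lower values in the knockouts, without passing the test. Of the 37 members with a mean value of at least 500, 28 had a negative log2 difference, and both knockouts lay below both controls in 22. In the same class of all tested genes 63.3% were negative, and 39.7% had both knockouts below both controls. At an unadjusted p under 0.05 there were 4 higher and 14 lower of the 37, together 48.6%, beside 24.3% of all tested genes at that level, with 16.0% of them lower, and 0 of the 37 passed the adjusted threshold. The median was -0.17 in these members and -0.075 in all tested genes at that level. The 27 members with a mean value under 50 had a median of 0.28, beside 0.22 in all tested genes at that level. Luminal epithelium markers moved with the abundant members: their sums were 186286 and 241574 in the knockouts and 258836 and 270314 in the controls, and 8 of 9 had both knockouts below both controls while Krt19 passed higher. The milk protein gene Csn3 supplied most of these sums, and without it they were 81616 and 73777 in the knockouts and 83067 and 84853 in the controls. Their part in the lower values was not tested.

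Genes of RNA and protein handling all had negative log2 differences. None of 9 tested passed, both knockouts were below both controls in 7, and the median log2 difference was -0.33. All 9 had a mean value of at least 500, where 63.3% of all tested genes were negative and 39.7% had both knockouts below both controls. Ssr2, a subunit of the translocon-associated complex through which secreted proteins enter the endoplasmic reticulum, had the highest level per kb of all members, at 1730 per kb in the knockouts and 2583 per kb in the controls. Its values were 3217 and 3231 in the knockouts against 5068 and 4559 in the controls, well apart. The log2 difference of -0.58 (SE 0.10) missed the threshold narrowly (limma adjusted p = 0.057). Of the other settings with all 4 libraries, it passed only with a pseudocount of 5 and with no filter (limma adjusted p = 0.0438 and 0.0357). Without 1 library the difference ran from -0.65 to -0.50. Gpatch4, a nucleolar G-patch protein gene, had 395 and 396 in the knockouts against 611 and 624 in the controls. Its log2 difference was -0.64 (SE 0.13, limma adjusted p = 0.0763), and from -0.66 to -0.63 without 1 library. Isg20l2, an exonuclease gene for ribosomal RNA, had 787 and 718 in the knockouts and 827 and 742 in the controls, and its groups overlapped.

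Nuclear envelope, chromatin and transcription genes went both ways. None of 7 passed, 4 had a negative log2 difference with both knockouts below both controls, 1 had both above, and the median log2 difference was -0.17. Over all tested genes 25.6% lay below in both knockouts and 25.5% above. At a mean value of at least 500, the level of most of the 7, 39.7% lay below. The lowest was Mex3a, an RNA-binding protein gene, with 663 and 677 in the knockouts against 1058 and 814 in the controls (log2 difference -0.47, limma adjusted p = 0.165). The highest was Etv3, an ETS-family repressor, with 904 and 861 in the knockouts against 772 and 654 in the controls (log2 difference 0.31, limma adjusted p = 0.259). Mitochondrial and metabolic genes had a median of -0.16 with none of 8 past the threshold and 5 below in both knockouts, where 25.6% of all tested genes were. All but Fdps had a mean value of at least 500, where that share was 39.7%. Of the 8 the carrier gene Slc25a44 was highest, with 624 and 570 in the knockouts and 577 and 480 in the controls. Fdps, an enzyme of isoprenoid synthesis, was lowest at 27.9 and 22.3 in the knockouts against 57.5 and 32.9 in the controls, with related copies elsewhere in the genome that leave its counts uncertain.

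Ras signalling and trafficking genes had a median log2 difference of -0.38, with none of 8 past the threshold, 6 below and 2 above in both knockouts. Over all tested genes 25.6% lay below and 25.5% above. At a mean value of at least 500, the level of most of the 8, 39.7% lay below. Paqr6, of the progestin and adipoQ receptor family, was highest, with 785 and 810 in the knockouts against 545 and 555 in the controls. The 4 values fell into narrow pairs, and the log2 difference of 0.54 (SE 0.12) had a limma adjusted p of 0.0876. Without 1 library the difference ran from 0.51 to 0.56. Rusc1, an adaptor gene of vesicle traffic, was lowest, with 93.5 and 72.8 in the knockouts against 105 and 151 in the controls (log2 difference -0.60, limma adjusted p = 0.337).

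Neural and glial genes, counted with Bcan, were mixed. Of 10 tested, only Bcan passed, where 0.414% of all tested genes passed higher. Bcan was also among the 5 with both knockouts above both controls, beside 25.5% of all tested genes, and 2 had both below. The median log2 difference, with Bcan included, was 0.58. Syt11, a synaptotagmin of vesicle traffic, had 369 and 358 in the knockouts against 238 and 230 in the controls, each pair tight. Its log2 difference was 0.63 (SE 0.17, limma adjusted p = 0.122), and from 0.61 to 0.66 without 1 library. Sema4a, a semaphorin of axon guidance and immune cells, had 895 and 782 in the knockouts against 608 and 505 in the controls. Its log2 difference was 0.59 (SE 0.14, limma adjusted p = 0.103), and from 0.46 to 0.73 without 1 library. Both genes were higher in each knockout than in each control without passing the threshold with all 4 libraries.

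Immune cell genes in the stretch included the Fc receptor-like genes. None of 4 passed, and 2 had both knockouts above both controls, as 25.5% of all tested genes did. Sh2d2a, an adaptor of activated T and NK cells, had 47.8 and 35.9 in the knockouts against 5.14 and 12.0 in the controls, a 4.90-fold higher mean and a log2 difference of 2.25 (SE 0.53, limma adjusted p = 0.0976). T and NK cell markers summed to 343 and 263 in the knockouts and 190 and 195 in the controls. Of the 6, 0 passed the threshold and 3 were above in both knockouts, beside the same 25.5%. Cd5l, which macrophages secrete, had 207 and 117 in the knockouts against 94.5 and 104 in the controls (log2 difference 0.65, limma adjusted p = 0.329), and Fcrls, a macrophage receptor gene, had 708 and 532 in the knockouts and 696 and 664 in the controls. Macrophage markers summed to 13656 and 11565 in the knockouts and 9661 and 7874 in the controls. Of the 7, 0 passed the threshold and 6 were above in both knockouts, again beside 25.5% of all tested genes. Fcrl1, a B cell receptor gene outside the naming rule, had 51.7 and 5.83 in the knockouts and 10.3 and 14.0 in the controls. Only knockout 1 was high, and the groups overlapped. B and plasma cell markers summed to 6624 and 4280 in the knockouts and 2155 and 1355 in the controls. Of the 7, 1 passed higher, Pou2af1, beside 0.414% of all tested genes. The part of immune cells in these values was not tested.

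Matrix and bone genes completed the roles. Of 4 epithelial surface and matrix genes none passed. Pear1, a platelet and endothelial receptor gene, had 291 and 209 in the knockouts against 189 and 94.7 in the controls. Its log2 difference was 0.88 (SE 0.35, limma adjusted p = 0.25), and from 0.38 to 1.37 without 1 library. Endothelial markers summed to 1305 and 871 in the knockouts and 944 and 497 in the controls, with 0 of 4 past the threshold. Tmem79, a skin barrier gene, had overlapping groups, with 475 and 478 in the knockouts and 479 and 416 in the controls. The osteocalcin genes went different ways without passing. Bglap, for bone osteocalcin, had 19.9 and 16.5 in the knockouts against 5.14 and 2.99 in the controls (log2 difference 1.95, limma adjusted p = 0.143), and Bglap3 had 1864 and 1208 in the knockouts against 2224 and 2200 in the controls (log2 difference -0.56, limma adjusted p = 0.216). The copies are near-identical, so the split of reads between them is uncertain. Gm43737, a transcript that overlaps Mtx1, had 75.6 and 83.5 in the knockouts against 107 and 182 in the controls. Its log2 difference was -0.81 (limma adjusted p = 0.249), and from -1.19 to -0.42 without 1 library. In all, 35 of the 78 members overlap another listed gene, 27 of them on the other strand.

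The longest 3′ UTR of each of the 57 protein-coding members was searched for miR-9 seed sites, a feature that position did not use. None of the 57 held the 8mer ACCAAAGA, which 5.03% of 15919 tested genes with a 3′ UTR held, while 21.1% of the members and 19.2% of all tested genes held a 7mer, ACCAAAG or CCAAAGA, and no 8mer. Matches were read on the transcript strand, and the 7mers overlap each other within the 8mer. The UTRs were shorter in the members, with a median of 726 bases beside 1254 over all tested genes. Bcan held no site. The median log2 difference was -0.16 over the 12 members with a 7mer and -0.09 over the 45 with no site. Over all tested genes it was 0.03 with an 8mer, 0.03 with a 7mer and -0.02 with no site, so the order of the members was the opposite one. The sites of Lmna and Sh2d2a are shown, Lmna because its prelamin A message is a known miR-9 target in neurons, Sh2d2a because it had the largest log2 difference of the site-bearing members; capitals mark the match, and 30 bases of GENCODE M21 transcript are printed 5′ to 3′.
Lmna, first site: caggcctgaagCCAAAGAaaaatttatccc
Lmna, second site: tctgccttaaaACCAAAGggcttctctagg
Sh2d2a, first site: tctctgctgccACCAAAGgtccctgcttgg
Sh2d2a, second site: tctccaaactcACCAAAGgctaccaagtca
Sh2d2a, last site: ctgtagctctgCCAAAGAggcagagggtat

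The Lmna matches lie at chr3:88481970-88481976 and chr3:88481786-88481792 on the minus strand. Those of Sh2d2a lie at chr3:87852813-87852819, chr3:87853429-87853435 and chr3:87853836-87853842 on the plus strand. Lmna, for the nuclear lamins A and C, had 4608 and 4234 in the knockouts against 4969 and 4997 in the controls, below in both (log2 difference -0.17, SE 0.099, limma adjusted p = 0.387). A match is a run of letters in the message and was not tested as a working site.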

How the data were processed

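Total RNA was taken up in TriZol and made into TruSeq RNA libraries for an Illumina NovaSeq instrument, per the labels' protocols. The submitters' processing notes name Bowtie 0.12.2 and list hg38, GRCm38 and mm10 without saying what each was for; the counter, strand setting and scaling method are not given in the sources used here. The deposited values are a normalised signal per gene: in each library 100% are whole multiples of 1 step (tolerance 1e-06), with steps from 0.971 to 1.03. These scaled values were tested on the log scale and no counting intervals were computed, because whole reads could not be told from values already near whole in 2 libraries. All 82 listed genes had the same coordinates in GENCODE M21 on GRCm38.

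The test was limma 3.58.1 under R 4.3.3, with a trend, robust estimation and genotype as the only term, on log2(value + 1) of 22455 genes, with Benjamini-Hochberg adjustment at 0.05. Each log2 difference is knockout minus control, and in low genes it depends on the added 1. With 2 libraries a side, no exact permutation test can pass. The members, lists and tests were chosen with earlier results of these data known. Named members are those past the threshold, Bcan, those over or nearest to Mir9-1 (5 a side), the 6 largest differences each way with a mean value of at least 50, and the extremes of each role list; other names were chosen after their values were seen. The labels state no pairing. The ephrin list had no member in the stretch. Of the basal and fibroblast markers also read, 0 passed in either direction. Some genes of the lists are not reported here by name.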

Additional observations from a re-analysis of the deposited data

How the results depend on the processing

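Of all tested genes, 131 passed; the count was 33 and 258 with pseudocounts of 0.1 and 5, 332 with no filter, 66 with at least 10 in 2 libraries, 257 with quantile normalisation, and from 0 to 2361 without 1 library. Around Mir9-1 the count of 1 was 0 with a pseudocount of 0.1 or at least 10 in 2 libraries, 2 with a pseudocount of 5 or no filter (Ssr2 added), and from 0 to 11 without 1 library. Around Mir9-3 the count was 1 with no filter, and around Mir9-2 it was 0 in the settings with all 4 libraries. The median around Mir9-2 ran from -0.78 to 0.01 without 1 library. The median of members from 500 to 1000 kb was -0.12 with quantile normalisation and from -0.14 to 0.05 without 1 library, and that around Mir9-3 was -0.11 and from -0.07 to 0.01 under the same settings. The median of all 78 members stayed between -0.14 and -0.02 in the alternatives run.

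Bcan stayed positive, between 4.34 and 6.43, in all alternatives. Without 1 library the sign turned for AW047730 (-1.76 to 0.92), Fcrls (-0.35 to 0.06), Glmp (-0.22 to 0.05), Isg20l2 (-0.14 to 0.02), Rhbg (-0.12 to 1.92) and Tmem79 (-0.01 to 0.19), none of which passed in any setting. In all, 19 of 32 named genes moved by over 1.5 times or turned sign without 1 library, among them Tsacc (-1.02 to -0.10), Iqgap3 (-0.69 to -0.20), Cd5l (0.23 to 1.06), Bglap3 (-0.87 to -0.25), Fdps (-1.17 to -0.38), Slc25a44 (0.05 to 0.31), Gm3764 (0.31 to 1.28), Pear1 (0.38 to 1.37), Gm43737 (-1.19 to -0.42), Mex3a (-0.66 to -0.28), Rusc1 (-0.87 to -0.34) and Etv3 (0.19 to 0.43). The cause was not tested. With the replicate number as a block, 367 genes passed, 1 of them around Mir9-1 and 1 around Mir9-3, and Bcan had a limma adjusted p of 0.018; same-numbered libraries deviated from their group means with a correlation of 0.118 over 2 pairs, too few to show that the numbers pair. With 2 libraries a group and no read counts accepted, precision of low genes is limited.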
